A study of Homo sapiens with 12 samples.

Results

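The genes described here encode 9 subunits of Polycomb repressive complex 1 (PRC1). They are the chromobox genes CBX2, CBX6, CBX7 and CBX8, the RING genes RING1 and RNF2, and the Polycomb group ring finger genes BMI1, PCGF1 and PCGF2. They were matched by name, and each name matched 1 row of the deposited gene table, so that 9 of its 60617 genes were members. All 9 were among the 20360 genes with enough counts to be tested, with 240 to 9509 counts in a library.

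PRC1 attaches ubiquitin to histone H2A and helps to keep developmental genes silent. Its enzyme is a RING protein, RING1 or RNF2, bound to a PCGF protein that sets which complex is formed. Canonical complexes hold PCGF2 or BMI1 and a CBX protein, whose chromodomain reads the histone H3 methylation laid down by the other Polycomb complex, PRC2, while variant complexes hold RYBP or YAF2 in place of CBX.

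Polyadenylated RNA of NCI-H295R, a steroid-secreting line derived from a human adrenocortical carcinoma, was sequenced in 12 libraries, 3 biological replicates in each of 4 groups. EZH2i cells were exposed to EPZ-6438, which inhibits the PRC2 methyltransferase EZH2, at 62 µM for 96 h. CBPi cells were exposed to PRI-724, which interferes with the partnership of the coactivator CBP and β-catenin, at 26 µM for 96 h. FSK cells were kept in vehicle for 48 h and then received 10 µM forskolin, an activator of adenylyl cyclase, for 48 h. Baseline cells received the vehicle DMSO for 96 h. All groups come from 1 cell line, both inhibitors were given at the dose the labels call IC-50, and the forskolin exposure was shorter than the others.

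Library totals were 29.5 to 31.5 megacounts in EZH2i, 20.6 to 28.8 in CBPi, 23.4 to 25.4 in FSK and 21.0 to 27.0 at baseline. The 9 adrenocortical markers (such as NR5A1, STAR and CYP17A1) were all detected, as the cell line's label implies, and their summed level was 670.2 to 699.5 CPM in EZH2i, 646.2 to 723.6 in CBPi, 4115 to 4353 in FSK and 2109 to 2183 at baseline. Of these genes 8 were lower in EZH2i and higher in FSK. NR0B1 went the other way, higher in EZH2i (log2 0.98) and lower in FSK (-1.76). CPM here are counts per megacount after scaling by TMM (trimmed mean of M values). Summed fibroblast markers (6 of 7 tested) were at 42.3 to 49.0 CPM in EZH2i, 15.0 to 18.9 in CBPi and 17.5 to 19.0 in FSK, against 39.2 to 41.45 at baseline. The fibroblast genes did not move together, with THY1 higher in EZH2i (log2 1.60) while COL3A1 was lower (-0.52). In FSK, LUM was higher (6.60) while COL3A1 was lower (-2.17). LUM had 95 to 133 counts in an FSK library and 0 to 2 in a baseline library, so the size of its change is uncertain. Summed markers of endothelial (3 of 5 tested), leukocyte (2 of 5) and chromaffin cells (1 of 4) stayed at or below 6.63 CPM in every library, with PTPRC and CD3E at 0 in CBPi, FSK and baseline libraries. The endothelial sum was 2.88 to 4.20 CPM in EZH2i, against 0.81 to 1.28 at baseline, with KDR higher in EZH2i (log2 2.83). CHGA, the chromaffin marker tested, was higher in CBPi (0.62) and FSK (0.39). The marker sums moved with treatment, and their part in the results on PRC1 genes was not tested. CBPi replicate 2 had the lowest CBPi value of CBX2, CBX6, CBX8 and PCGF2. Member results of CBPi comparisons are therefore also given without it where a call changed, and for some others where only the size did.

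Promoters of 7 of the 9 genes were in the RefSeq table (build GRCh38.p14), which runs from 250 bases before to 50 bases after an annotated start. Those of CBX2 and CBX8 were not in it. The sequences of 2 pairs are shown, in the direction of transcription. CBX6 and CBX7 lie on chromosome 22 and both rose with EZH2i and fell with FSK, and RING1 and RNF2, the alternative enzymes, moved in opposite directions with EZH2i. Capitals mark the matches to TGACG, the core of the site bound by the cAMP-responsive factor CREB, and to CACGTG, the E-box. Both strands were searched, so CGTCA is the first motif read on the other strand, and the CBX6 run CACGTGACG holds both motifs, overlapping by 2 bases.
CBX6 promoter, chr22:38872167-38872466, minus strand: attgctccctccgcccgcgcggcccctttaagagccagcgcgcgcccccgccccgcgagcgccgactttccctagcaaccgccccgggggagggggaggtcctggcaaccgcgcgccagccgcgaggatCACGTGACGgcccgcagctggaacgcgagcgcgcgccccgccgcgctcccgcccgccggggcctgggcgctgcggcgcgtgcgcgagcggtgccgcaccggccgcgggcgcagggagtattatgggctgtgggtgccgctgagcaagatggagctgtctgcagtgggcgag
CBX7 promoter, chr22:39152631-39152930, minus strand: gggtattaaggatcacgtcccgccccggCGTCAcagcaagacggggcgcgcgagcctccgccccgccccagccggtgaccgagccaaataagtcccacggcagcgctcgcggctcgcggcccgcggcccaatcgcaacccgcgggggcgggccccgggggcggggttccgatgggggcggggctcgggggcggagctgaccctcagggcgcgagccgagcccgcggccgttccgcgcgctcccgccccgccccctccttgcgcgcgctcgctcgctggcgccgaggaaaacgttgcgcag
RING1 promoter, chr6:33208250-33208549, plus strand: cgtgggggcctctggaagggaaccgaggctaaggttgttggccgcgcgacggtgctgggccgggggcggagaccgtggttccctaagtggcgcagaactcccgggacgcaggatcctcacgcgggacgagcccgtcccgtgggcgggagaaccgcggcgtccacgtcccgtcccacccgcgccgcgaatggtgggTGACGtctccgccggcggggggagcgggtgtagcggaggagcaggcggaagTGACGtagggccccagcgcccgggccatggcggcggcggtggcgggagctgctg
RNF2 promoter, chr1:185045308-185045607, plus strand: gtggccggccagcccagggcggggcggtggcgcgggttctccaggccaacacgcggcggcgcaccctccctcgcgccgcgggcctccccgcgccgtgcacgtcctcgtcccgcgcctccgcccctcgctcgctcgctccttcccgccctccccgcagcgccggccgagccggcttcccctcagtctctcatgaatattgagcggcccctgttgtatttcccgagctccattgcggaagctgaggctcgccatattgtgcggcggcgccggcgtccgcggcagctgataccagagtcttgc

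All 4 of these promoters were rich in CpG, with 47 CpG in CBX6, 50 in CBX7, 41 in RING1 and 41 in RNF2, against a median of 14 over all promoters. TGACG was matched at 55 and 4 bases before the start of RING1, 117 before that of CBX6 and 222 before that of CBX7, and in 24.5% of the 34796 promoters searched. CACGTG was matched at 121 bases before the start of CBX6 and 70 before 1 of the 2 BMI1 starts, and in 7.2% of promoters. The full cAMP response element TGACGTCA (1.84% of promoters), the TCF/LEF core CTTTGAT (2.62%) and the E2F core TTTNGCGC (1.78%) had no match in the windows of the 7 members. These matches describe letters only, and binding was not measured.

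Per kilobase of gene length, the baseline level was highest for RING1, at 31.4 CPM per kb, and CBX6, at 29.02. BMI1, CBX2 and PCGF2 followed at 14.6, 14.5 and 13.7 CPM per kb, then PCGF1 at 9.45 and CBX8 at 6.79. CBX7 and RNF2 were lowest, at 3.25 and 3.005 CPM per kb, and 49.4% and 47.9% of the genes tested had a lower level. RING1 stood above 90.8% of the genes tested. BMI1 and CBX2 lay within the spread of their libraries of each other. The place of PCGF1 depends on its length, which was 1744 bases as deposited and 2629 in the GENCODE annotation. The BMI1 level leaves out the overlapping readthrough gene COMMD3-BMI1, which had 44.2 CPM at baseline beside 64.2 for BMI1.

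**Figure D1:**
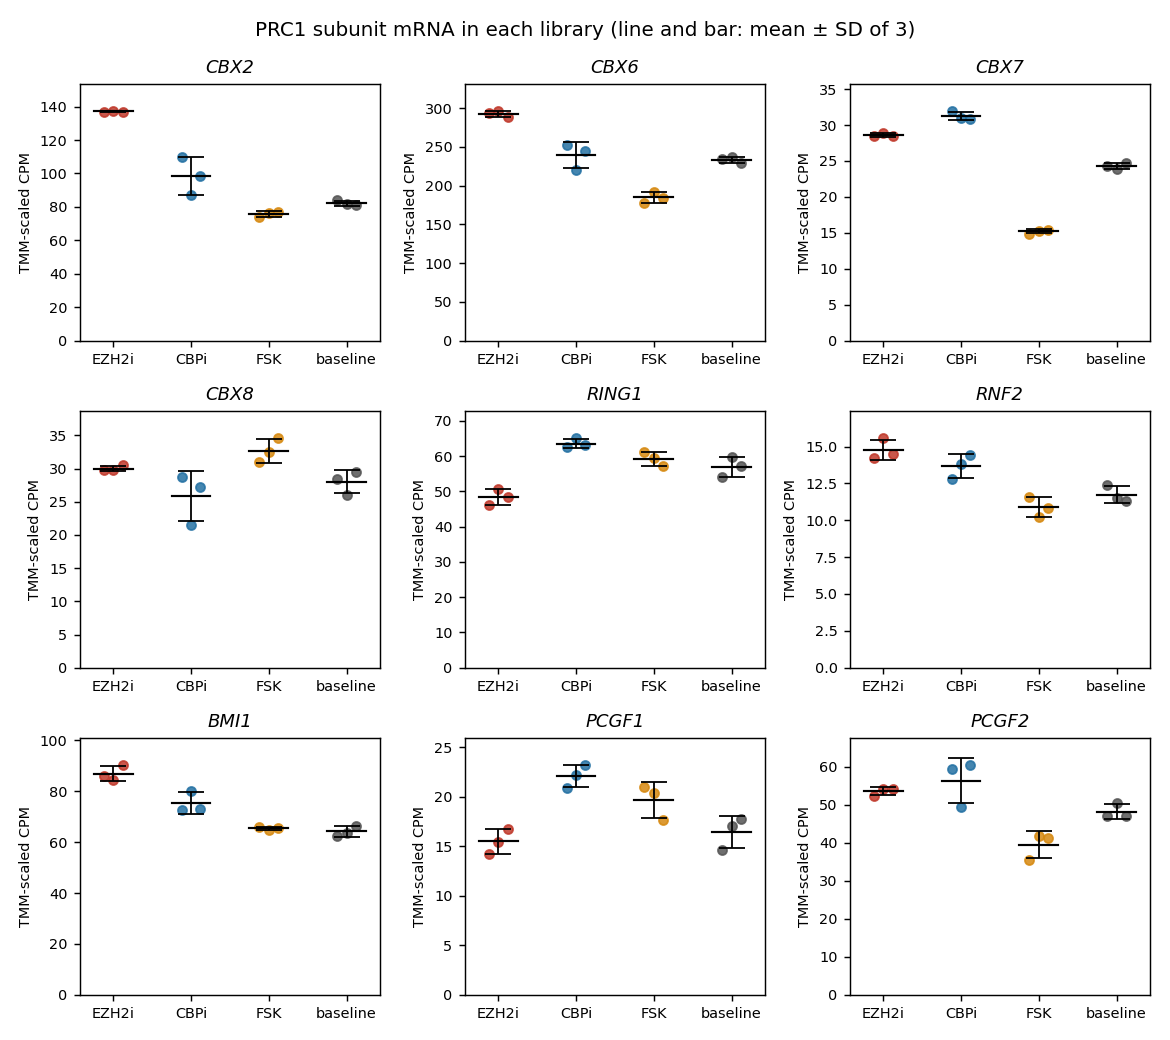
TMM-scaled CPM of the 9 PRC1 subunit genes in each of the 12 libraries, by group, with every axis starting at 0 (points, libraries; lines and bars, mean and SD of 3). CBX2 sits near 137 CPM in all EZH2i libraries, and CBX7 near 15 CPM in all FSK libraries, apart from every other group.

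With EZH2i, 5 of the 9 genes rose (CBX2, CBX6, CBX7, RNF2 and BMI1), RING1 fell, and CBX8, PCGF1 and PCGF2 did not pass the test. Called genes, those with an adjusted p under 0.05 in edgeR's quasi-likelihood test, made up 57.8% of all genes tested in that comparison, 29.5% higher and 28.3% lower. The members' median log2 fold change was 0.24, beside 0.02 over all genes, and their median size of change, regardless of sign, was 0.24, beside 0.32. The count of 6 of 9 was near that background share, and the median size of change was below that of all genes. Values measure RNA in bulk cultures, in which fewer cells of a kind and less RNA per cell cannot be told apart.

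With CBPi, 7 genes rose (all but CBX6 and CBX8) and 0 fell, where 58.9% of all genes passed, 29.8% higher and 29% lower. The members' median log2 fold change was 0.23, beside 0.01 over all genes, and their median size of change 0.23, beside 0.34. Without CBPi replicate 2, 6 members passed and RING1 did not (adjusted p = 0.0552). With FSK, CBX8 and PCGF1 rose, CBX6, CBX7 and PCGF2 fell and the other 4 did not pass, beside 50.6% of all genes, 25.5% higher and 25.1% lower. Of all calls with FSK, 50.5% were higher, and 39.7% when libraries were scaled by their size only. The members' median log2 fold change with FSK was -0.11, beside 0.01 over all genes, and their median size of change 0.22, beside 0.28. Without FSK replicate 2 only 3 members passed, since both of the genes that rose were lost.

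**Figure D2:**
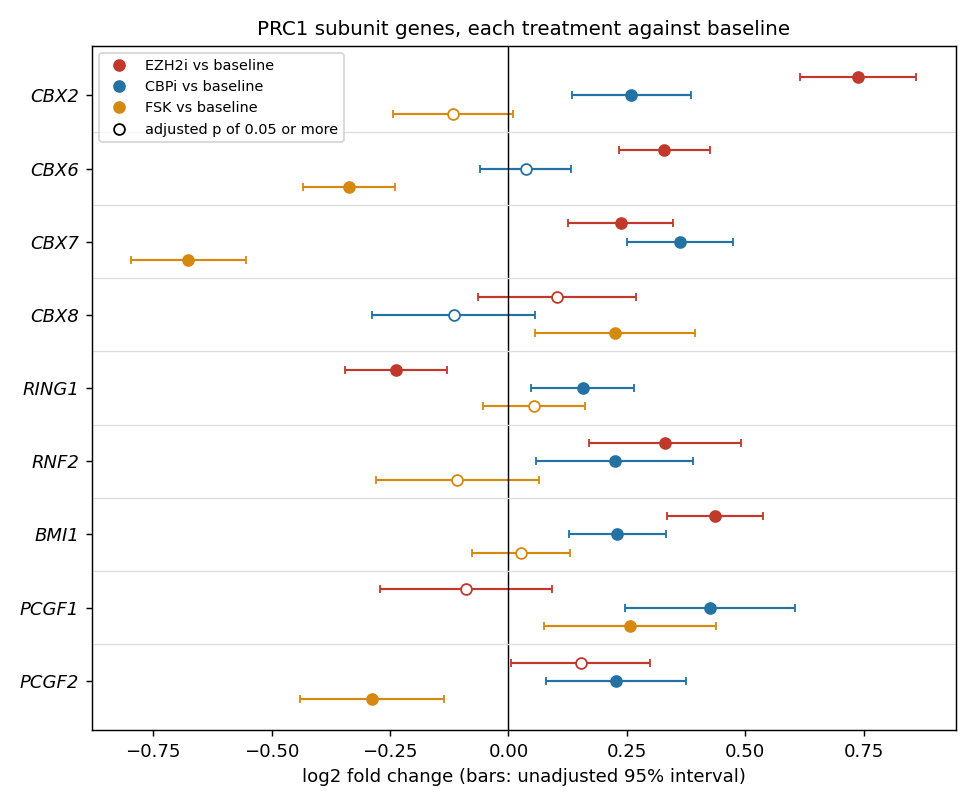
Log2 fold change of each PRC1 subunit gene against baseline (points, edgeR estimate; bars, unadjusted 95% interval; open points, adjusted p of 0.05 or more). CBX2 has the largest rise with EZH2i, at 0.74, and CBX7 the largest fall with FSK, at -0.68.

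CBX2 (chr17:79778132-79787983, plus strand, hg38) encodes a chromobox subunit that compacts chromatin, and in mouse its orthologue is needed for normal adrenal formation. It had 137, 137 and 137 CPM in EZH2i libraries, 110.0, 86.9 and 98.7 in CBPi, 74.0, 76.2 and 77.2 in FSK, against 83.95, 81.8 and 80.9 at baseline. The EZH2i libraries lay above all others, the CBPi libraries above all baseline ones and the FSK libraries below all baseline ones. CBX2 rose 1.67-fold with EZH2i (log2 0.74 ± 0.06 SE, edgeR adjusted p = 1.68e-09), and this was the single member change against baseline that passed a test for more than 1.5-fold (adjusted p = 0.0199), which 11.4% of all genes passed (12.2% with CBPi and 11.8% with FSK, where 0 members did). With CBPi it rose by 0.26 ± 0.06 (adjusted p = 0.000916), or by 0.33 without CBPi replicate 2. With FSK the log2 change was -0.12 (95% interval -0.24 to 0.01, adjusted p = 0.116). The groups fall in the order EZH2i, CBPi, then baseline and FSK, which did not differ past the threshold.

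CBX6 (chr22:38861450-38872314, minus strand) is the chromobox member with the most counts. It had 293.6, 296.0 and 288.6 CPM in EZH2i, 252.4, 220.4 and 244.6 in CBPi, 177.8, 191.9 and 184.2 in FSK, against 233.9, 236.3 and 229.0 at baseline. The EZH2i libraries were all higher and the FSK libraries all lower than baseline, and the CBPi libraries overlapped it through replicate 2. CBX6 rose 1.26-fold with EZH2i (log2 0.33 ± 0.05 SE, adjusted p = 4.05e-06) and fell to 0.79 of baseline with FSK (log2 -0.34 ± 0.05, adjusted p = 4.27e-06). The change with CBPi was 0.04 (95% interval -0.06 to 0.13, adjusted p = 0.516), or 0.08 without CBPi replicate 2 (adjusted p = 0.092).

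CBX7 (chr22:39120167-39152674, minus strand), a reader of the PRC2 mark known for silencing the INK4A locus, had the widest range of the members. It had 28.4, 28.9 and 28.5 CPM in EZH2i, 31.9, 31.0 and 30.8 in CBPi, 14.9, 15.3 and 15.4 in FSK, against 24.3, 23.9 and 24.75 at baseline. Every group lay apart from every other, with CBPi highest and FSK lowest. CBX7 fell to 0.63 of baseline with FSK (log2 -0.68 ± 0.06 SE, adjusted p = 4.96e-09), short of the test for more than 1.5-fold (adjusted p = 0.14). It rose with CBPi (0.36 ± 0.05, adjusted p = 7.71e-06) and with EZH2i (0.24 ± 0.05, adjusted p = 0.000707). An antisense gene, AL031846.2, shares 1338 exon bases with CBX7, and had 0 to 4 counts in a library, beside 344 to 921 for CBX7.

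CBX8 (chr17:79792132-79801683, minus strand), which lies next to CBX2 and is a known partner of leukaemia fusion proteins, had the narrowest range of group means. It had 29.7, 29.8 and 30.5 CPM in EZH2i, 28.7, 21.55 and 27.2 in CBPi, 31.0, 32.45 and 34.6 in FSK, against 28.45, 26.1 and 29.45 at baseline. All FSK libraries were above baseline, all EZH2i libraries were above it by a small margin, and CBPi overlapped it. The rise with FSK (log2 0.22 ± 0.08 SE, adjusted p = 0.0257) did not pass without FSK replicate 2 (0.0543), FSK replicate 3 (0.11) or baseline replicate 2 (0.136), with DESeq2 (0.0588), or with scaling by library size only (0.112). With EZH2i the change was 0.10 (95% interval -0.06 to 0.27, adjusted p = 0.284) and with CBPi -0.12 (-0.29 to 0.06, adjusted p = 0.238), or -0.01 without CBPi replicate 2.

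RING1 (chr6:33208495-33212722, plus strand) encodes a ubiquitin ligase of PRC1. It had 46.25, 50.75 and 48.3 CPM in EZH2i, 62.65, 65.1 and 63.1 in CBPi, 61.2, 59.4 and 57.1 in FSK, against 54.1, 59.7 and 57.25 at baseline. All EZH2i libraries were below baseline, all CBPi libraries were above it, and FSK overlapped it. RING1 fell to 0.85 of baseline with EZH2i (log2 -0.24 ± 0.05 SE, adjusted p = 0.000572). With CBPi it rose by 0.16 ± 0.05 (adjusted p = 0.0134), which was lost without CBPi replicate 2 (0.0552) or baseline replicate 1 (0.0844). With FSK the change was 0.05 (95% interval -0.05 to 0.16, adjusted p = 0.413).

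RNF2 (chr1:185045364-185102608, plus strand) encodes the alternative ligase, the main one in mouse embryonic stem cells. It had 14.2, 15.6 and 14.5 CPM in EZH2i, 12.8, 13.8 and 14.4 in CBPi, 11.6, 10.2 and 10.85 in FSK, against 12.4, 11.5 and 11.3 at baseline. The EZH2i and CBPi libraries were all above baseline, and the FSK libraries overlapped it. RNF2 rose 1.26-fold with EZH2i (log2 0.33 ± 0.08 SE, adjusted p = 0.00102), opposite in direction to RING1. Its rise with CBPi (0.22 ± 0.08, adjusted p = 0.0203) did not pass without CBPi replicate 3 (0.0968), baseline replicate 2 (0.0698) or baseline replicate 3 (0.075), or with DESeq2 (0.0841). With FSK the change was -0.11 (95% interval -0.28 to 0.06, adjusted p = 0.296).

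BMI1 (chr10:22321211-22331484, plus strand) encodes a PCGF protein of canonical PRC1 that stimulates the ligase and is known to hold down the INK4A locus. It had 86.0, 84.5 and 90.1 CPM in EZH2i, 72.7, 80.15 and 73.1 in CBPi, 66.0, 64.65 and 65.45 in FSK, against 62.6, 63.6 and 66.5 at baseline. EZH2i was above every other group and CBPi above FSK and baseline, which overlapped. BMI1 rose 1.35-fold with EZH2i (log2 0.44 ± 0.05 SE, adjusted p = 1.9e-07) and 1.17-fold with CBPi (0.23 ± 0.05, adjusted p = 0.000453). Without CBPi replicate 2 the rise with CBPi was 0.17 (adjusted p = 0.00383). The change of BMI1 with FSK was 0.03 (95% interval -0.08 to 0.13, adjusted p = 0.697). The readthrough gene COMMD3-BMI1 shares 1000 exon bases with it on the same strand, 23.3% of its exon bases, and BMI1 counts were fractional in 7 of 12 libraries, so reads of the shared part are uncertain. COMMD3-BMI1 rose by 0.21 with EZH2i (adjusted p = 0.00279), and its change with CBPi was 0.00 (adjusted p = 0.984). With the counts of both genes summed, all 6 BMI1 calls of the 6 comparisons kept their side of the threshold, but the rise with CBPi was then 0.14 on the log2 scale.

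PCGF1 (chr2:74505043-74508580, minus strand) encodes the PCGF protein of a variant complex with KDM2B and BCOR. It had 14.3, 15.5 and 16.8 CPM in EZH2i, 20.9, 22.2 and 23.2 in CBPi, 21.0, 20.4 and 17.6 in FSK, against 14.6, 17.1 and 17.7 at baseline. The CBPi libraries were all above baseline, whereas EZH2i and FSK overlapped it. PCGF1 rose 1.34-fold with CBPi (log2 0.43 ± 0.09 SE, adjusted p = 0.000257), the largest rise of a member in that group. Its rise with FSK (0.26 ± 0.09, adjusted p = 0.0184) was lost without FSK replicate 1 (0.092), FSK replicate 2 (0.0677) or baseline replicate 1 (0.116), and with scaling by library size only (0.0802). With EZH2i the change was -0.09 (95% interval -0.27 to 0.09, adjusted p = 0.393).

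PCGF2 (chr17:38733897-38749817, minus strand), also called MEL18, is the close relative of BMI1 in canonical PRC1. It had 52.4, 54.1 and 54.1 CPM in EZH2i, 59.35, 49.4 and 60.3 in CBPi, 35.4, 41.8 and 41.15 in FSK, against 47.0, 50.4 and 46.95 at baseline. All FSK libraries were below baseline, all EZH2i libraries above it, and CBPi overlapped it through replicate 2. PCGF2 fell to 0.82 of baseline with FSK (log2 -0.29 ± 0.07 SE, adjusted p = 0.00255) and rose with CBPi (0.23 ± 0.07, adjusted p = 0.0097). The rise with CBPi was 0.30 without CBPi replicate 2 (adjusted p = 0.000193) and was lost without CBPi replicate 3 (0.17, adjusted p = 0.0672). With EZH2i the change was 0.15 (95% interval 0.01 to 0.30, unadjusted), which missed the threshold (adjusted p = 0.07).

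The exons of PCGF2 share 1148 bases, 32.7% of their length, with CISD3 on the opposite strand, and the strand setting of the counting is not given in the sources used here. Without strand, reads from the shared part of the 2 genes cannot be told apart. CISD3 fell by 0.90 on the log2 scale with EZH2i (adjusted p = 5.36e-09) and by 0.34 with CBPi (adjusted p = 0.000769), and its change with FSK was 0.13 (adjusted p = 0.157). In each of these 3 comparisons against baseline CISD3 thus had the opposite sign to PCGF2, while between EZH2i and CBPi both were negative (CISD3 -0.56, PCGF2 -0.07). The part of shared reads in the PCGF2 values was not tested.

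Between EZH2i and CBPi, 4 members were higher with EZH2i (CBX2, CBX6, CBX8 and BMI1) and 2 lower (RING1 and PCGF1), while 43.9% of all genes passed, 21.7% higher and 22.2% lower. None of these member differences passed the test for more than 1.5-fold (0 of 9), which 4.88% of all genes passed. RING1 was lower with EZH2i by 0.39 on the log2 scale (log2 -0.39 ± 0.05 SE, adjusted p = 3.58e-06) and PCGF1 by 0.52 (-0.52 ± 0.08, adjusted p = 4.75e-05). CBX2 was higher by 0.48 ± 0.06 (adjusted p = 1.53e-06), or by 0.40 without CBPi replicate 2. The difference in CBX8 (0.22, adjusted p = 0.0325) did not pass without CBPi replicate 2 (0.11, adjusted p = 0.183), without EZH2i replicate 1, 2 or 3 (0.0625, 0.0652 and 0.0844), with DESeq2 (0.0501) or in a fit of the 2 groups alone (0.0598). CBX7 (-0.13, 95% interval -0.23 to -0.02 unadjusted, adjusted p = 0.054), RNF2 (0.11, -0.05 to 0.26, adjusted p = 0.267) and PCGF2 (-0.07, -0.22 to 0.07, adjusted p = 0.412) did not pass. Without CBPi replicate 2, PCGF2 passed as lower with EZH2i (-0.16, adjusted p = 0.0403).

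Between EZH2i and FSK, 6 members were higher with EZH2i and 2, RING1 and PCGF1, were lower, beside 61.6% of all genes called, 30.3% higher and 31.3% lower. The largest differences were in CBX7 (1.88-fold, log2 0.91 ± 0.06 SE) and CBX2 (1.81-fold, 0.86 ± 0.06), and these 2 also passed the test for more than 1.5-fold, which 18.5% of all genes passed. CBX8 was the member that did not pass (-0.12, 95% interval -0.29 to 0.04, adjusted p = 0.185). Between CBPi and FSK, 6 members were higher with CBPi and CBX8 was lower (-0.34 ± 0.08, adjusted p = 0.00121), beside 58.8% of all genes called, 29.3% higher and 29.5% lower. Without CBPi replicate 2 the CBX8 difference was -0.23 (adjusted p = 0.0048). CBX7 was 2.05-fold higher with CBPi than with FSK (log2 1.04 ± 0.06 SE, adjusted p = 2.59e-12), the largest difference of a member in any of the 6 comparisons and the 1 that passed the test for more than 1.5-fold here (15.3% of all genes). RING1 (0.10, adjusted p = 0.0941) and PCGF1 (0.17, adjusted p = 0.0916) did not pass.

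**Figure D3:**
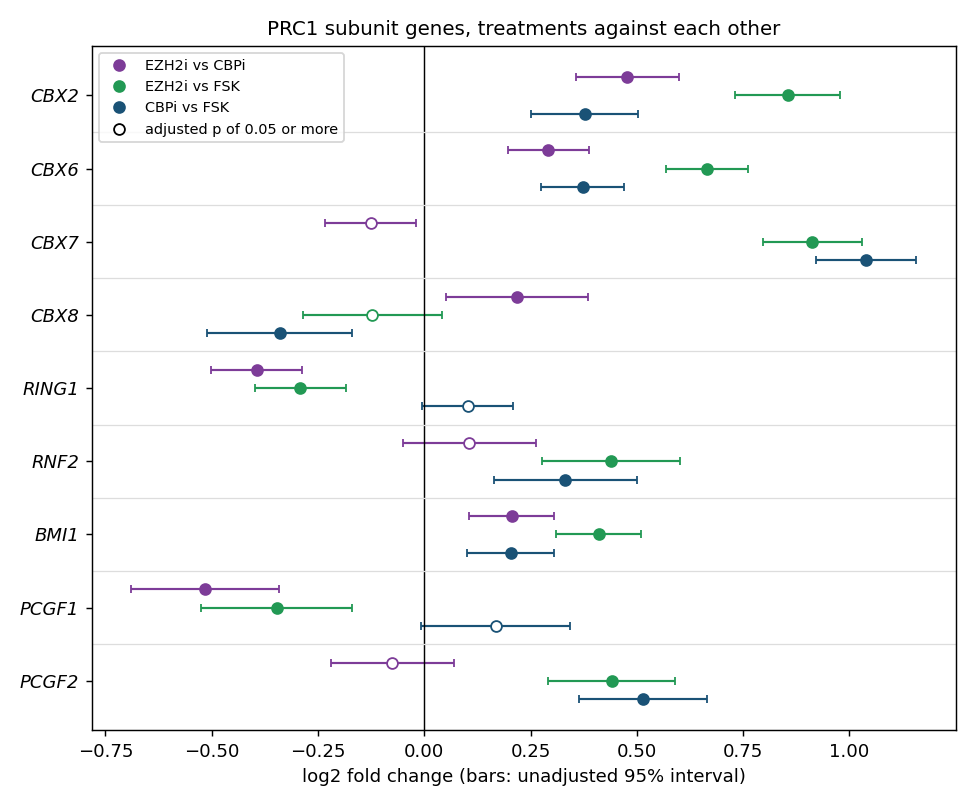
Log2 fold change of each PRC1 subunit gene between pairs of treatments (points, edgeR estimate; bars, unadjusted 95% interval; open points, adjusted p of 0.05 or more). RING1 and PCGF1 are lower with EZH2i than with CBPi or FSK, and CBX7 is above FSK with both EZH2i (0.91) and CBPi (1.04).

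Paralogues compete for the same place in the complex, so each gene's share of a summed level of related genes was computed per kilobase. Over the 4 CBX members, the share of CBX2 was 33.7 ± 0.2% in EZH2i, 30.1 ± 1.0% in CBPi, 28.9 ± 0.4% in FSK and 27.1 ± 0.3% at baseline (SD, n = 3 each). CBX8 held 10.1 ± 0.2% in EZH2i, 10.8 ± 0.7% in CBPi, 17.1 ± 0.6% in FSK and 12.7 ± 0.8% at baseline. The CBX2 share was above baseline in every treated library, and the CBX8 share was higher in the FSK libraries than in all others. In every library of the 3 treatments the CBX6 share was below its baseline range of 53.6 to 55.1%. Its highest value there was 52.6%, in CBPi.

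CBX7 never held more than 7.96% of the level of the 4 CBX members, and in FSK its share was 4.40 ± 0.06%, against 6.08 ± 0.13% at baseline. The summed level of these 4 genes was 71.7 ± 0.4 CPM per kb in EZH2i, 57.6 ± 5.0 in CBPi, 46.3 ± 1.4 in FSK and 53.6 ± 0.5 at baseline (SD, n = 3 each). The EZH2i libraries were all above baseline and the FSK libraries all below it. CBPi overlapped it through replicate 2 alone, at 52.15 CPM per kb against 53.23 to 54.08 at baseline, and its other libraries were above baseline. Differences in shares were not tested.

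RNF2 made up 12.4 ± 0.1% of the RING level in EZH2i, 9.07 ± 0.47% in CBPi, 7.86 ± 0.40% in FSK and 8.74 ± 0.77% at baseline, and RING1 the rest. The EZH2i libraries, at 12.2 to 12.5%, were above all others, whose highest value was 9.62%. The summed RING level was 30.5 ± 1.4 CPM per kb in EZH2i, 38.6 ± 0.8 in CBPi, 35.5 ± 1.2 in FSK and 34.5 ± 1.4 at baseline. It was thus lowest in EZH2i although RNF2 rose there.

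Among PCGF1, PCGF2, PCGF3, BMI1, PCGF5 and PCGF6, BMI1 held 27.8 ± 0.4% in EZH2i, 23.95 ± 1.6% in CBPi, 23.3 ± 0.5% in FSK and 23.95 ± 0.9% at baseline. PCGF1 held 12.5 ± 0.8% in EZH2i, 17.7 ± 0.6% in CBPi, 17.6 ± 1.5% in FSK and 15.5 ± 1.3% at baseline. PCGF2 held 21.5 ± 0.5% in EZH2i, 22.4 ± 2.2% in CBPi, 17.6 ± 1.6% in FSK and 22.45 ± 0.4% at baseline. BMI1 therefore had its highest share in EZH2i, where PCGF1 had its lowest, and PCGF2 had its lowest in FSK. The level of these shares depends on the length used. With GENCODE lengths in place of the deposited ones the PCGF1 share was 8.61% in EZH2i, 12.4% in CBPi, 12.4% in FSK and 10.8% at baseline.

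**Figure D4:**
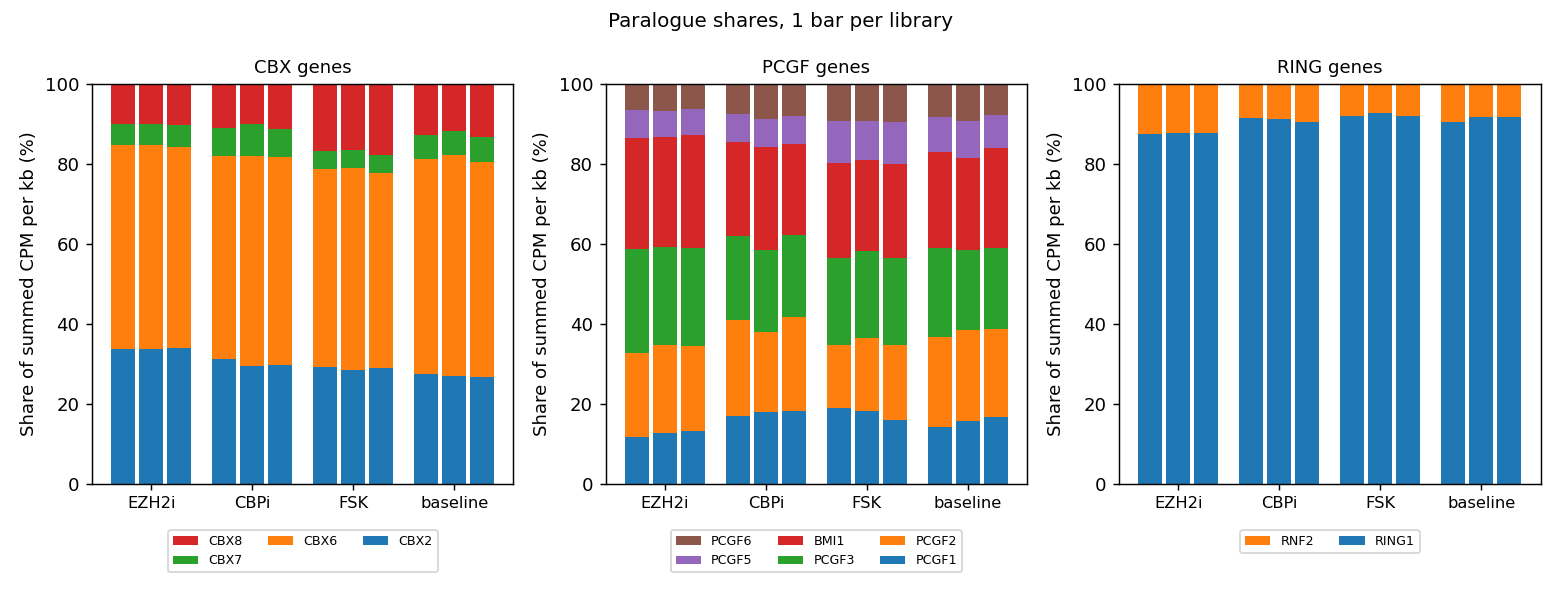
Share of each gene in the summed CPM per kb of the genes in its panel, in percent, with 1 bar for each of the 12 libraries. The CBX2, BMI1 and RNF2 bands are widest in EZH2i, and the CBX8 band is widest in FSK.

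Of 5 other canonical PRC1 genes, which were all tested, 3 rose and 1 fell with EZH2i, 3 rose and 1 fell with CBPi, and 1 rose and 3 fell with FSK. Each count of 4 called stands beside 57.8%, 58.9% and 50.6% called among all genes, and with 5 genes no difference from those shares is read. The Polyhomeotic genes PHC1, PHC2 and PHC3, whose proteins polymerise and cluster PRC1, all rose with both inhibitors. PHC2 had the largest change, with 155.0 to 158.9 CPM in EZH2i, 198.6 to 216.1 in CBPi and 330.0 to 335.3 in FSK, against 129.0 to 139.6 at baseline. It rose 2.50-fold with FSK (log2 1.32 ± 0.04 SE, adjusted p = 9.4e-16), where no member's fall or rise passed the test for more than 1.5-fold. SCMH1 fell with FSK (-0.63, adjusted p = 6.01e-09), as did SCML2 (-0.43, adjusted p = 9.13e-05), and the fall of PHC1 (-0.15, adjusted p = 0.0488) did not pass under 14 of the alternatives, such as without FSK replicate 1 (0.23) or baseline replicate 1 (0.165).

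Of 25 variant PRC1 genes outside the members, 11 rose and 7 fell with EZH2i, 9 rose and 7 fell with CBPi, and 12 rose and 6 fell with FSK. The shares called among all genes were 57.8%, 58.9% and 50.6%. The median log2 fold changes of the 25 genes were 0.08, 0.06 and 0.12, beside 0.02, 0.01 and 0.01 over all genes. Scaling by library size only turned the FSK counts into 6 higher and 7 lower, as PCGF3, PCGF6, USP7, FBRSL1, CSNK2A1 and CSNK2A2 did not pass and L3MBTL2 passed as lower, and without baseline replicate 3 they were 6 higher and 6 lower. RYBP, which replaces CBX in variant complexes, rose with EZH2i (0.48, adjusted p = 4.05e-08), CBPi (0.49, adjusted p = 2.62e-08) and FSK (0.59, adjusted p = 1.68e-09), whereas its paralogue YAF2 fell with EZH2i (-0.35, adjusted p = 4.17e-05) and CBPi (-0.29, adjusted p = 0.000364). BCOR, the partner of PCGF1, rose with EZH2i (0.51, adjusted p = 5.4e-09) and CBPi (0.40, adjusted p = 1.82e-07). AUTS2, an activating partner of PCGF3 and PCGF5 complexes, fell to 0.45 of baseline with FSK (-1.16, adjusted p = 2.19e-10) and rose with EZH2i (0.47, adjusted p = 9.18e-06).

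The PCGF genes outside the members differed in direction with EZH2i. PCGF3 rose with EZH2i (0.48, adjusted p = 6.42e-09), CBPi (0.22, adjusted p = 0.000154) and FSK (0.14, adjusted p = 0.0107, not passing under 3 alternatives). PCGF5 fell with EZH2i (-0.20, adjusted p = 0.00309) and rose with FSK (0.29, adjusted p = 0.000157). PCGF6 did not pass with EZH2i (-0.15, adjusted p = 0.119) or CBPi (0.18, adjusted p = 0.0701), and its rise with FSK (0.21, adjusted p = 0.0377) did not pass under 8 alternatives, with adjusted p of 0.0691 to 0.175. EZH2 itself, the target of EPZ-6438 whose activity and not transcript the drug acts on, had a log2 change of 0.04 with EZH2i (adjusted p = 0.474), while its PRC2 partners EED (-0.54, adjusted p = 4.36e-08) and SUZ12 (-0.24, adjusted p = 0.000146) fell. These falls were not particular to EZH2i. EED also fell with CBPi (-0.55, adjusted p = 4.36e-08), though it did not pass with FSK (-0.11, adjusted p = 0.0841). SUZ12 also fell with FSK (-0.33, adjusted p = 5.35e-06) and CBPi (-0.13, adjusted p = 0.0232, not passing under 4 alternatives). EZH2 fell with CBPi (-0.19, adjusted p = 0.000704), and its paralogue EZH1 rose with EZH2i (0.31, adjusted p = 0.00233) and CBPi (0.34, adjusted p = 0.00127).

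**Figure D5:**
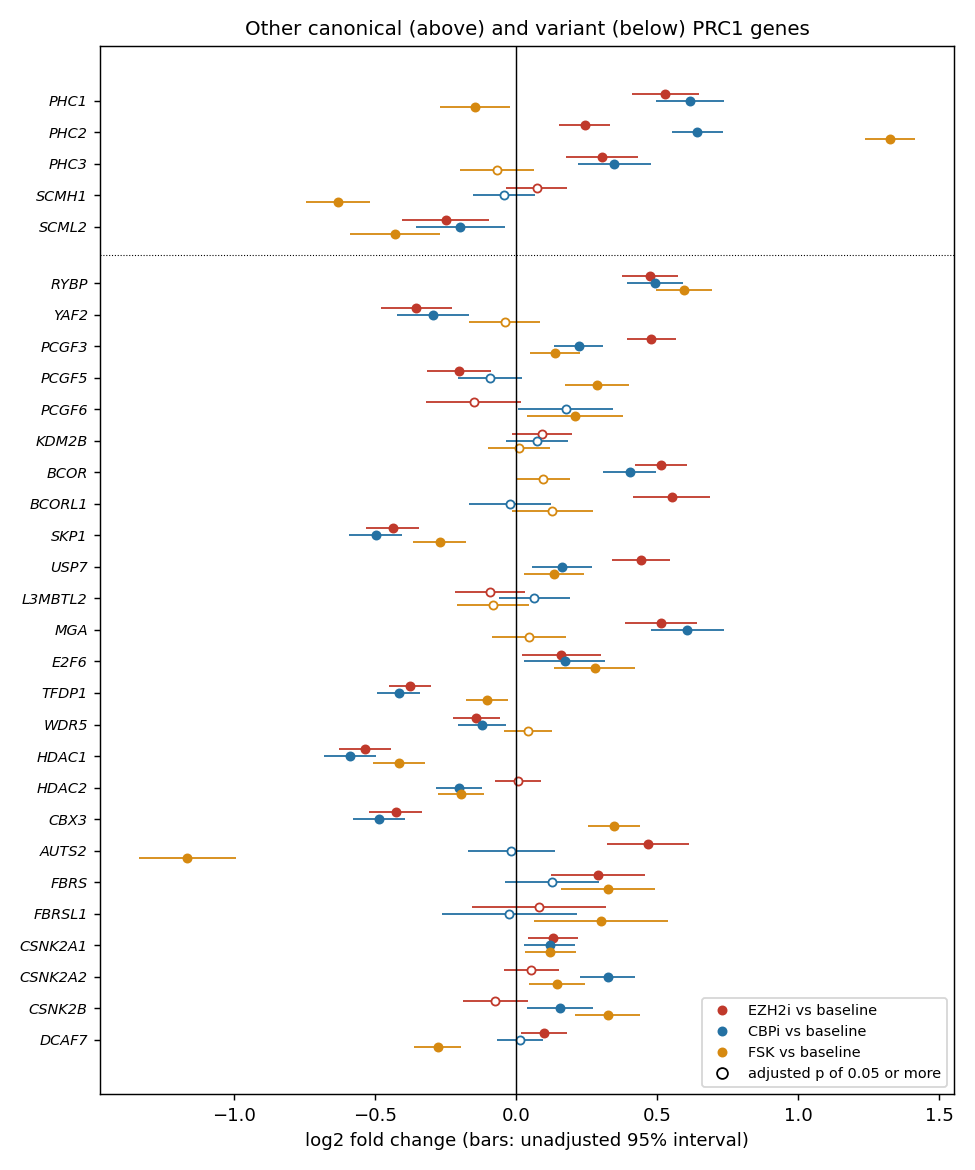
Log2 fold change against baseline of 5 other canonical (above) and 25 variant (below) PRC1 genes (points, edgeR estimate; bars, unadjusted 95% interval; open points, adjusted p of 0.05 or more). PHC2 rises most with FSK, at 1.32, and AUTS2 falls most, at -1.16.

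The 3 members with the widest range of group means were CBX7, CBX2 and CBX6, at 1.04, 0.85 and 0.67 on the log2 CPM scale, and the genes most like them over the 12 libraries were found by the root mean square difference of centred log2 CPM. For CBX7 these were NUDT4 (0.05), RNF145 (0.06) and TMEM47 (0.07), of 12348 genes with a comparable range. For CBX2 they were DBN1 (0.07), SH3PXD2B (0.08) and MAGED4B (0.09). For CBX6 they were the unnamed gene ENSG00000093100 (0.05), PPP1R9B (0.05) and MICAL3 (0.06). NUDT4 and MAGED4B have near-identical copies in the genome, so their counts are uncertain, and the differences are descriptions over libraries that share their groups.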

How the data were processed

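Polyadenylated RNA of 12 NCI-H295R libraries was measured as gene counts. Per the submitters' processing notes, STAR, featureCounts and hg38 were used. Their versions and the strand and multimapping settings are not given in the sources. The authors deposited estimated counts made with these tools for 60617 Ensembl genes. Of the non-zero values 65.6% were whole within 1e-06, and all were rounded. The authors deposited a gene length column of another unit, used here for CPM per kb. All 12 columns were matched to labels.

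Groups follow the labels, which call the 3 libraries of a group biological replicates. Counts were analysed in R 4.3.3 with edgeR 4.0.16 (filterByExpr, TMM, 1 robust quasi-likelihood model of all libraries), tested on simulated data. Benjamini-Hochberg adjustment ran over 20360 genes and the threshold was 0.05. Replicates are cultures of 1 cell line, so p-values reflect their spread (biological coefficient of variation 4.98%). SE is the log2 fold change divided by the square root of F, and glmTreat tested changes beyond 1.5-fold. Exon overlaps came from GENCODE, promoters from RefSeq.

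The members and gene lists were chosen with earlier results of these data known. Named are all members, the other PCGF genes, PRC2 and INK4 genes, up to 4 of the largest changes per list, overlapping genes and nearest profiles. The text prints some of these, and 1 gene of the lists is not reported here, nor counted in list counts or shares. Alternatives were DESeq2 1.42.0, limma 3.58.1 voom, other scalings and filters, 2-group fits, each library left out, and, added after seeing the data, GENCODE lengths and summed BMI1 counts.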

Additional observations from a re-analysis of the deposited data

How the results depend on the processing

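The number of members past the threshold was 6 (EZH2i against baseline), 7 (CBPi against baseline), 5 (FSK against baseline), 6 (EZH2i against CBPi), 8 (EZH2i against FSK) and 7 (CBPi against FSK). The test for more than 1.5-fold gave 1, 0, 0, 0, 2 and 1, a stricter question by construction. With each library left out in turn the counts were 6 to 7, 5 to 7, 3 to 6, 5 to 6, 8 to 8 and 7 to 7, the 3 being without FSK replicate 2. Other tests, scalings, filters and 2-group fits gave 6 to 7, 6 to 7, 4 to 6, 5 to 7, 8 to 8 and 7 to 9. No log2 fold change of a member that passed changed sign under these alternatives (0 reversed). PCGF2 with EZH2i, which missed the threshold, passed under 5 of them, and CBX2 with FSK under 4. Among the other genes, FBRSL1 with CBPi ranged over -0.13 to 0.12 with a library left out, passing as higher without CBPi replicate 2 (adjusted p = 0.0306), against -0.02 with all, and the cause was not tested. Scaling moved the median of all genes by at most 0.09 on the log2 scale. Paralogue shares kept within 1 SD when a library was left out (144 of 144). This outcome was fixed in advance, since leaving out 1 of 3 values cannot move their mean by 1 SD. Without length, with other lengths or with COMMD3-BMI1 counts added to BMI1, 89 of 120 shares moved by more than 1 SD. Without length the CBX6 share was 59.9% in EZH2i, 60.6% in CBPi, 59.9% in FSK and 63.4% at baseline, and with COMMD3-BMI1 added the BMI1 share was 33.3 to 38.0%. No paired analysis was possible because the labels give no replicate numbers. Among the members, changes near 0.2 on the log2 scale in RNF2, PCGF1 and CBX8, which had the fewest counts beside CBX7, were the calls most often lost. Other genes lost calls more often, such as PHC1 with FSK and E2F6 with EZH2i (14 alternatives each).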

Other observations

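Other genes encode the proteins that remove the ubiquitin that PRC1 attaches, and their partners. Of 12 genes of H2A deubiquitination, 7 rose and 1 fell with EZH2i, 5 rose and 0 fell with CBPi, and 2 rose and 3 fell with FSK. The shares called among all genes were 57.8%, 58.9% and 50.6%, so the share called was not above these with CBPi or FSK. With EZH2i the 7 include ASXL3, which had counts in EZH2i alone and could enter the test only through that group. No difference from the share of all genes is therefore read for EZH2i. The H2A deubiquitinases of the list, named here after their values were seen where they were not among its largest changes, differed. MYSM1 rose with EZH2i (log2 0.25, adjusted p = 0.00725), CBPi (0.49, adjusted p = 1.62e-05) and FSK (0.45, adjusted p = 6.22e-05). The rise with EZH2i did not pass without baseline replicate 2 (adjusted p = 0.0566). USP16 fell with FSK (-0.23, adjusted p = 0.00169), and its fall with EZH2i (-0.13, adjusted p = 0.0422) did not pass under 10 alternatives. BAP1 did not pass with EZH2i (0.01, adjusted p = 0.833) or CBPi (0.05, adjusted p = 0.318) and fell with FSK (-0.16, adjusted p = 0.00591), while its cofactor ASXL1 rose with EZH2i (0.43, adjusted p = 1.65e-07) and CBPi (0.38, adjusted p = 9.26e-07) and fell with FSK (-0.26, adjusted p = 0.000171). MBD6, another BAP1 partner, rose with EZH2i (0.62, adjusted p = 7.54e-09) and CBPi (0.50, adjusted p = 1.45e-07). The paralogue ASXL3 had 84 counts over the EZH2i libraries and 0 over those of each other group, at least 21.2-fold higher with EZH2i than the floor of 3 counts over the baseline group. OGT, the O-GlcNAc transferase, had 184.2 to 242.8 CPM in FSK, against 64.6 to 68.7 at baseline, and rose 3.24-fold (log2 1.70, adjusted p = 1.11e-08).

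The HP1 genes encode proteins that also carry a chromodomain but read another histone mark. CBX3 fell with EZH2i (-0.43, adjusted p = 7.88e-08) and CBPi (-0.49, adjusted p = 1.21e-08) and rose with FSK (0.35, adjusted p = 1.56e-06). CBX1 and CBX5 fell with FSK (-0.43, adjusted p = 7.97e-08, and -0.33, adjusted p = 4.54e-05), and neither passed with EZH2i or CBPi. CDKN2A, at the INK4A locus that CBX7 and BMI1 are known to silence, had 212.7 ± 11.2 CPM in EZH2i, 223.0 ± 48.6 in CBPi and 213.7 ± 8.5 in FSK, against 284.8 ± 17.4 at baseline (SD, n = 3 each). It was below baseline in all 9 treated libraries (log2 -0.42, -0.35 and -0.41, with adjusted p of 0.0208, 0.0443 and 0.0258). All 3 calls were lost without baseline replicate 3 (adjusted p of 0.0694, 0.128 and 0.0831), those with EZH2i and FSK also without EZH2i replicate 1 (0.0697) and without FSK replicate 1 or 2 (0.0763 and 0.0713), and that with CBPi under 11 of the alternatives. CDKN2B, the other INK4 gene of the list, rose with CBPi (0.45, adjusted p = 0.000588). It did not pass with EZH2i (0.22, adjusted p = 0.0539, passing under 8 alternatives) or FSK (-0.25, adjusted p = 0.0517, passing under 7).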
